A study of Mus musculus with 6 samples.

Results

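The genes described here are 38 members of the nuclear receptor and coregulator network of the liver, 27 receptors and 11 coregulators, taken by symbol from a table of 33495 genes. They are the receptors for oxysterols, thyroid hormone, retinoids, vitamin D and steroids, several orphan receptors, and the proteins that receptors recruit to activate or repress transcription. Cap-enriched liver RNA was sequenced from 3 SHP -/- and 3 wild type mice, all male, of C57BL6 strain background and 2 months old. SHP is the product of Nr0b2. The labels name neither the way the allele was made nor litters, so separate samples of a genotype were taken as replicates, and p-values measure the spread between them.

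Nuclear receptors bind DNA, often as pairs with a retinoid X receptor, and exchange corepressors for coactivators when a ligand binds. SHP is unusual in having no DNA-binding domain. It docks onto other receptors, competes with their coactivators and brings in corepressors, and in liver it is best known for feedback on bile acid synthesis. The receptors listed here respond to sterols, hormones and vitamin A derivatives, and several of them are known partners of SHP.

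Library totals ran from 4494353 to 7225842 counts in SHP -/- livers and from 4982530 to 6155064 in wild-type livers. Mitochondrially encoded genes took 5.66% to 7.1% of the counts in SHP -/- libraries and 10.2% to 10.3% in wild-type libraries, and with these genes left out the same 6 members passed the test. Libraries were barcoded in sets of 3 to a lane, and since the lane of each is not stated, lane and genotype cannot be told apart. Nr0b2 itself held 29, 36 and 77 counts in SHP -/- libraries 1, 2 and 3, against 104, 59 and 85 in wild-type libraries. Its level was 8.01 ± 2.03 CPM (counts scaled to library size) in SHP -/- livers and 14.5 ± 2.87 CPM in wild-type livers (SD, n = 3 each; log2 difference −0.81 ± 0.25 SE, limma voom, adjusted p = 0.0442). Whether the remaining reads come from the altered allele's transcript was not tested. The liver label was checked with hepatocyte markers, whose 12 genes summed to between 99132 and 103275 CPM in SHP -/- libraries and between 90412 and 114508 CPM in wild-type libraries. Summed lymphocyte and neutrophil markers stayed between 2.36 and 4.43 CPM in SHP -/- libraries and between 4.26 and 5.40 CPM in wild-type libraries.

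Of the 38 members, 37 had counts. Vdr, the vitamin D receptor, was listed with empty cells and has no value here. Another 4 members, Esrrb, Hnf4g, Nr2f1 and Nr4a2, fell below the low-count filter, which left 33 tested. At a Benjamini-Hochberg adjusted p under 0.05 (limma voom over 11794 genes), 5 members were higher in SHP -/- livers, 1 was lower and 27 did not pass. The higher genes were Nr2f6, Esrra, Nr1h2, Carm1 and Rxra, and the lower gene was Nr2f2. The 6 members past the threshold were 18.2% of those tested, against 14.5% of all genes tested. By direction, 15.2% were higher, against 7.58% of all genes, and 3.03% were lower, against 6.94% of all genes. The median absolute log2 difference was 0.30 among the tested members and 0.29 over all genes. Receptors supplied 4 of the higher genes and the lower one among 22 tested, and coregulators supplied 1 higher gene among 11 tested.

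**Figure D1:**
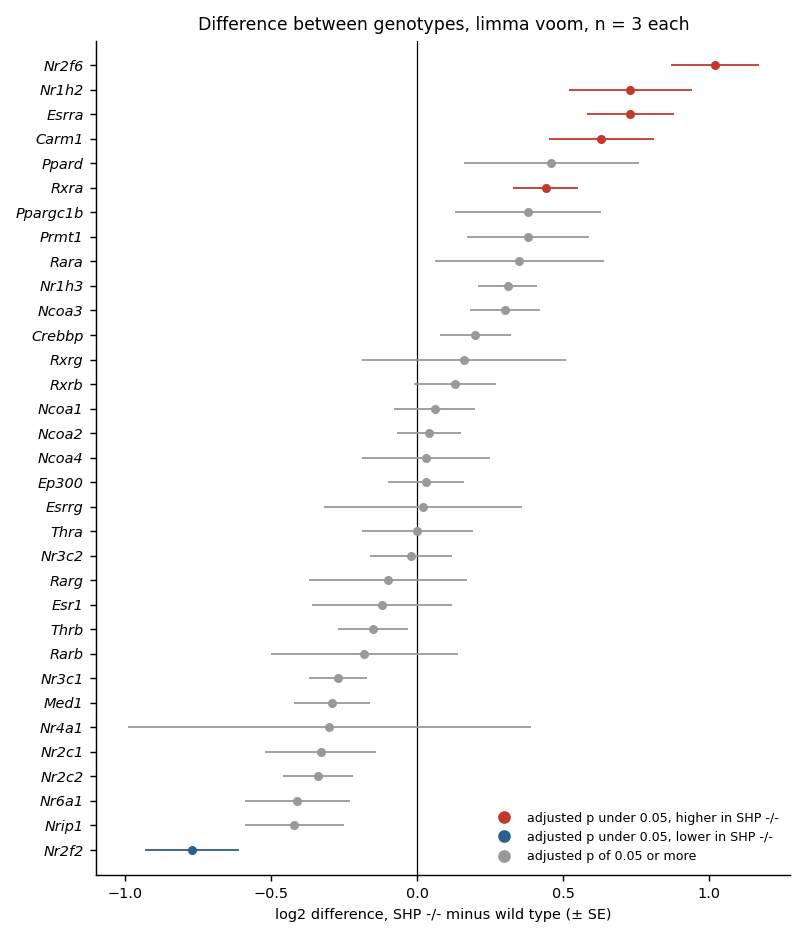
Log2 difference, SHP -/- minus wild type, of the 33 tested members with standard errors, ordered by value (limma voom, 3 libraries a group). Nr2f6 lies farthest to the right at 1.02 and Nr2f2 farthest to the left at −0.77, and the members that did not pass run from −0.42 to 0.46.

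The windows before the start sites of Nr2f6 and Nr2f2 are printed because these relatives in the COUP-TF family had the largest differences and moved in opposite directions, and the window before the downstream start of Rxra because it holds a receptor half-site. Each is the 250 bases before a RefSeq start in GRCm38.p6, read 5′ to 3′ on the gene's strand. Capitals mark AGGTCA, the half-site that many nuclear receptors bind, and GGGCGG, the core of a GC box, on either strand. Those marked TGACCT or CCGCCC are the same letters on the opposite strand, and neighbouring matches may share bases. Nr2f6 was read from chr8:71381953-71382202 on the minus strand, Nr2f2 from chr7:70366747-70366996 on the minus strand, and Rxra from chr2:27709042-27709291 on the plus strand.
Nr2f6: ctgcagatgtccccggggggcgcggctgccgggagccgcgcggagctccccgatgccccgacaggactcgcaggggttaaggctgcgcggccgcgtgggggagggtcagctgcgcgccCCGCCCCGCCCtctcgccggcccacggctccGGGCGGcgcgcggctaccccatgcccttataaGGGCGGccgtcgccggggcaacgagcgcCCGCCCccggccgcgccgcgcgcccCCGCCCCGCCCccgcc
Nr2f2: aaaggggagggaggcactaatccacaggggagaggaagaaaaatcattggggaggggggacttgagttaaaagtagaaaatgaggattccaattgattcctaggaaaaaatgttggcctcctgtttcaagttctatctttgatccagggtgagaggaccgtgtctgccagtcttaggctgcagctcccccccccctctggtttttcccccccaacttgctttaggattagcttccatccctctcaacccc
Rxra, downstream start: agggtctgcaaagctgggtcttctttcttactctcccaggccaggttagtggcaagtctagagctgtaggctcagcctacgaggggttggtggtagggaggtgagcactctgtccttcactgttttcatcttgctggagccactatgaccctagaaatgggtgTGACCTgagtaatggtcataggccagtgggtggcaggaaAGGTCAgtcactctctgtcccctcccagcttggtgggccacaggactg

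The Nr2f6 window was 82.4% G and C with 7 GGGCGG matches, whereas the Nr2f2 window was 50% G and C with no match to either motif. The downstream Rxra window, at 55.2% G and C, held 2 AGGTCA matches. One of them is extended to AAGGTCA, the form that monomeric orphan receptors favour, with its first base 49 bases before the start. The upstream Rxra window was 81.2% G and C with 3 GGGCGG matches and no AGGTCA. Of the other members past the threshold, Esrra had a window with 68.4% G and C and 2 GGGCGG matches, Nr1h2 had one with 48.4% and no match to either motif, and Carm1 was not among the windows used. Over all 32851 windows of this length the median was 52.4% G and C, and GGGCGG occurred in 32.7%, AGGTCA in 14% and AAGGTCA in 4.08%. The 50 windows of the 31 members that were matched by symbol held GGGCGG in 52%, AGGTCA in 12% and AAGGTCA in 6%. A match describes letters in a window and is not a measured binding site.

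Retinoid X receptors are the shared partners of the thyroid, retinoic acid, oxysterol and peroxisome proliferator receptors. Rxra (ENSMUSG00000015846, mm9 chromosome 2, 27531960 to 27618477, plus strand), the main isotype of hepatocytes, was measured at 857, 723 and 674 CPM in SHP -/- libraries, against 568, 535 and 545 CPM in wild-type libraries. Every SHP -/- library lay above every wild-type library. The means were 751 ± 94.9 CPM in SHP -/- livers and 549.5 ± 17.0 CPM in wild-type livers (SD, n = 3 each), a 1.36-fold difference (log2 difference 0.44 ± 0.11 SE, limma adjusted p = 0.0146). The call was lost without SHP -/- library 1 (limma adjusted p = 0.0695, log2 difference 0.35) and without wild-type library 3 (limma adjusted p = 0.0667, log2 difference 0.44). Rxrb averaged 38.4 ± 3.79 CPM in SHP -/- livers and 35.2 ± 4.77 CPM in wild-type livers (SD, n = 3 each; log2 difference 0.13 ± 0.14 SE, limma adjusted p = 0.59). Rxrg, the least abundant isotype, averaged 4.36 ± 1.05 CPM in SHP -/- livers and 4.02 ± 1.02 CPM in wild-type livers (SD, n = 3 each), and its groups overlapped.

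The retinoic acid receptors, which bind all-trans retinoic acid, did not pass. Rara averaged 12.2 ± 3.83 CPM in SHP -/- livers and 9.88 ± 3.24 CPM in wild-type livers (SD, n = 3 each; log2 difference 0.35 ± 0.29 SE). Rarb averaged 6.08 ± 2.46 CPM in SHP -/- livers and 6.28 ± 1.21 CPM in wild-type livers, and Rarg 5.60 ± 0.640 CPM in SHP -/- livers and 6.11 ± 0.615 CPM in wild-type livers (SD, n = 3 each). The limma adjusted p values of the 3 receptors ran from 0.435 to 0.844, and their groups overlapped. Of 14 tested genes of retinoid handling and retinoic acid targets, 2 were higher, 1 was lower and 11 did not pass (median log2 difference 0.07, against −0.0064 over all genes). Over all genes tested, 7.58% were higher and 6.94% lower, shares to be read beside the counts of this and the later lists. Rarres2, which encodes the adipokine chemerin, averaged 254 ± 46.1 CPM in SHP -/- livers and 177 ± 10.6 CPM in wild-type livers (SD, n = 3 each; log2 difference 0.51 ± 0.13 SE, limma adjusted p = 0.0169). Dhrs3, a retinaldehyde reductase, was higher (log2 difference 0.41, limma adjusted p = 0.0195), and Rdh16, a retinol dehydrogenase, was lower (log2 difference −0.46, limma adjusted p = 0.045). Rbp4, the plasma carrier of retinol and the most abundant of the genes that did not pass, differed by 0.12 on the log2 scale. Passing genes in this list numbered 1 when wild-type library 2 was left out and 0 when wild-type library 3 was.

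**Figure D2:**
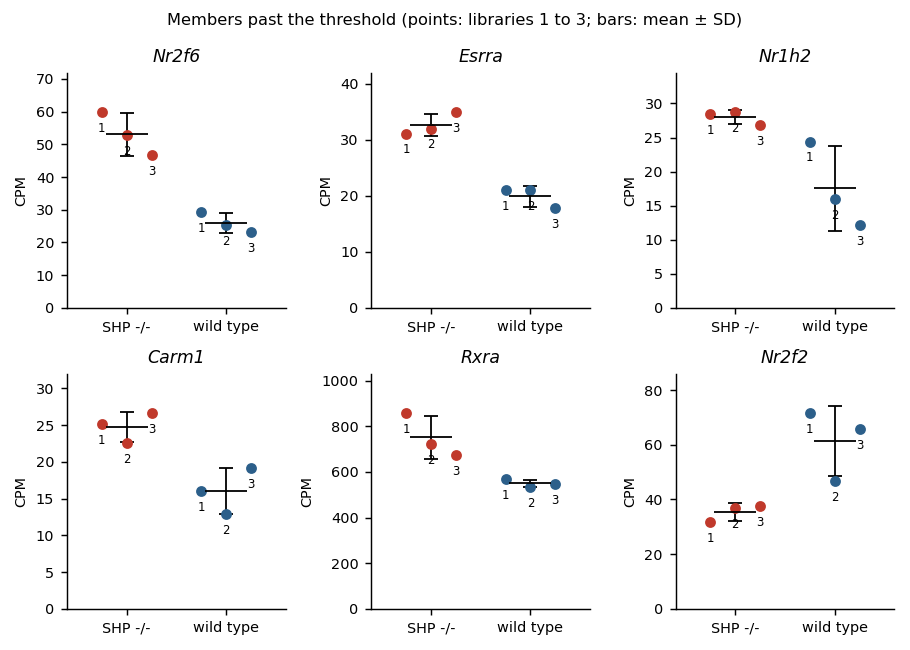
CPM of the 6 members past the threshold in each library, with points numbered by library, and mean ± SD bars (n = 3 each; linear axes from 0). In each panel the 3 SHP -/- libraries lie apart from the 3 wild-type libraries, above them for Nr2f6, Esrra, Nr1h2, Carm1 and Rxra and below them for Nr2f2.

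The liver X receptors are activated by oxysterols and control cholesterol efflux and fatty acid synthesis. Nr1h2, the broadly expressed LXR beta (ENSMUSG00000060601, mm9 chromosome 7, 51804986 to 51809321, minus strand), stood at 28.5, 28.7 and 26.8 CPM in SHP -/- libraries, against 24.4, 16.0 and 12.2 CPM in wild-type libraries. The SHP -/- values were close together, whereas wild-type library 1 had 2.00 times the level of wild-type library 3. The means were 28.0 ± 1.02 CPM in SHP -/- livers and 17.5 ± 6.23 CPM in wild-type livers (SD, n = 3 each; log2 difference 0.73 ± 0.21 SE, limma adjusted p = 0.0358). Of the 6 fits with 1 library left out, the call held in 1, the fit without wild-type library 1. Without wild-type library 3 the log2 difference was 0.47, with the highest limma adjusted p of these fits, 0.204. Nr1h3, the liver-enriched LXR alpha, was at 113, 116 and 113 CPM in SHP -/- libraries, against 95.9, 90.0 and 90.2 CPM in wild-type libraries. Its groups did not overlap, but the log2 difference of 0.31 ± 0.10 SE just missed the threshold (limma adjusted p = 0.054). It passed with sample quality weights (limma adjusted p = 0.0486) and with the stricter low-count filter (limma adjusted p = 0.0437).

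Among 14 tested LXR target genes, 2 were higher in SHP -/- livers, none was lower and 12 did not pass. The median log2 difference of the 14 was 0.11, and 14.5% of all genes tested passed. The higher pair, Abcg5 and Abcg8, encodes the transporter that secretes sterols into bile. Abcg5 averaged 117 ± 9.15 CPM in SHP -/- livers and 83.7 ± 6.51 CPM in wild-type livers (SD, n = 3 each; log2 difference 0.47 ± 0.11 SE, limma adjusted p = 0.0136). Abcg8 averaged 178 ± 10.7 CPM in SHP -/- livers and 129 ± 12.4 CPM in wild-type livers (SD, n = 3 each; log2 difference 0.46 ± 0.11 SE, limma adjusted p = 0.0134). Apoe, an abundant lipoprotein gene, had a log2 difference of 0.16 (limma adjusted p = 0.352). Neither transporter gene passed without SHP -/- library 1 or without wild-type library 3, where the count for the list was 0. Ppard, a fatty acid receptor expressed in many tissues, was at 5.25, 7.66 and 6.04 CPM in SHP -/- libraries, against 4.61, 3.53 and 5.40 CPM in wild-type libraries. The groups overlapped, and its log2 difference of 0.46 ± 0.30 SE, the largest positive one among members that did not pass, had a limma adjusted p of 0.335.

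Thyroid hormone receptors regulate lipid turnover and thermogenic metabolism in the liver, where the beta isotype predominates. Thrb averaged 69.6 ± 4.74 CPM in SHP -/- livers and 77.0 ± 6.17 CPM in wild-type livers (SD, n = 3 each; log2 difference −0.15 ± 0.12 SE, limma adjusted p = 0.418). Thra averaged 20.0 ± 0.774 CPM in SHP -/- livers and 20.0 ± 4.80 CPM in wild-type livers (SD, n = 3 each; log2 difference 0.00 ± 0.19 SE). Thra overlaps Nr1d1 on the opposite strand by 1075 bases in mm9. Nr1d1, which encodes the clock repressor REV-ERB alpha, was higher at 72.2, 68.7 and 90.3 CPM in SHP -/- libraries, against 53.9, 48.2 and 49.2 CPM in wild-type libraries (log2 difference 0.61 ± 0.13 SE, limma adjusted p = 0.00889). The pair shares 263 exonic bases in the GENCODE annotation of GRCm38. The lengths listed in the authors' table, 4351 bases for Thra and 2814 for Nr1d1, equal the exonic lengths of that annotation less the shared bases.

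Of 12 tested genes of thyroid hormone handling and targets, 2 were higher, 2 were lower and 8 did not pass. The median log2 difference of the 12 was 0.14, and 14.5% of all genes tested passed. Hr, which encodes the corepressor hairless and is a classic thyroid hormone target in brain, held 41, 48 and 48 counts in SHP -/- libraries, against 1, 3 and 5 in wild-type libraries. Its log2 difference of 3.89 ± 0.64 SE (limma adjusted p = 0.00179) depends on the count offset because the wild-type counts are so low. Cpt1a, the gate of mitochondrial fatty acid oxidation, averaged 476 ± 37.5 CPM in SHP -/- livers and 327 ± 23.5 CPM in wild-type livers (SD, n = 3 each; log2 difference 0.54 ± 0.10 SE, limma adjusted p = 0.00434). Me1, malic enzyme, which supplies NADPH for fatty acid synthesis, was lower at 16.9 ± 2.25 CPM in SHP -/- livers and 40.3 ± 4.96 CPM in wild-type livers (SD, n = 3 each; log2 difference −1.27 ± 0.17 SE, limma adjusted p = 0.000541). Ttr, a plasma thyroid hormone carrier, had a log2 difference of −0.00. The genes that passed thus went both ways, and only 2 of the 12 passed without SHP -/- library 1 or without SHP -/- library 3.

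Nr3c1 and Nr3c2 encode the glucocorticoid and mineralocorticoid receptors. Nr3c1 averaged 113 ± 2.67 CPM in SHP -/- livers and 137 ± 9.48 CPM in wild-type livers (SD, n = 3 each). Every SHP -/- library lay below every wild-type library, but the log2 difference of −0.27 ± 0.10 SE did not pass (limma adjusted p = 0.0947). Nr3c2 averaged 31.7 ± 2.83 CPM in SHP -/- livers and 32.0 ± 1.07 CPM in wild-type livers (SD, n = 3 each), a log2 difference of −0.02 ± 0.14 SE. Esr1, the estrogen receptor alpha, averaged 23.5 ± 7.21 CPM in SHP -/- livers and 24.0 ± 5.02 CPM in wild-type livers (SD, n = 3 each), with SHP -/- library 3 lowest at 15.2 CPM. Its log2 difference was −0.12 ± 0.24 SE (limma adjusted p = 0.78).

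Among 18 tested genes of glucocorticoid handling and targets, 2 were higher, 2 were lower and 14 did not pass. The median log2 difference of the 18 was −0.02, and 14.5% of all genes tested passed. Fkbp5, a chaperone of the glucocorticoid receptor and one of its targets, averaged 82.5 ± 13.6 CPM in SHP -/- livers and 50.3 ± 1.06 CPM in wild-type livers (SD, n = 3 each; log2 difference 0.69 ± 0.13 SE, limma adjusted p = 0.00439). Mt1, a metallothionein, was at 193, 284 and 41.5 CPM in SHP -/- libraries, against 44.7, 29.7 and 40.0 CPM in wild-type libraries. SHP -/- library 3 lay within the wild-type range, so the groups of Mt1 overlapped although it passed (log2 difference 1.74 ± 0.55 SE, limma adjusted p = 0.049). Angptl4, an inhibitor of lipoprotein lipase, was lower at 108 ± 16.4 CPM in SHP -/- livers and 171 ± 36.8 CPM in wild-type livers (SD, n = 3 each; log2 difference −0.64 ± 0.16 SE, limma adjusted p = 0.0154). Pck1, the entry enzyme of gluconeogenesis, had a log2 difference of 0.05 (limma adjusted p = 0.794). With either wild-type library 2 or 3 left out, the count for the list was 1.

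Estrogen-related receptors are orphan receptors that work with the PGC-1 coactivators on genes of oxidative metabolism. Esrra, the alpha isotype (ENSMUSG00000024955, mm9 chromosome 19, 6985467 to 6996308, minus strand), was at 31.1, 32.0 and 34.9 CPM in SHP -/- libraries, against 21.0, 21.0 and 17.8 CPM in wild-type libraries. The groups were tight and well apart. Means were 32.7 ± 2.00 CPM in SHP -/- livers and 19.9 ± 1.85 CPM in wild-type livers (SD, n = 3 each), a 1.66-fold difference (log2 difference 0.73 ± 0.15 SE, limma adjusted p = 0.00728). Trmt112, on the opposite strand, shares 48 bases with Esrra in mm9 and held 24 counts over the SHP -/- libraries and 18 over the wild-type libraries. Without wild-type library 3 Esrra missed the threshold at a limma adjusted p of 0.0509, with a log2 difference of 0.64. Esrrg averaged 6.02 ± 2.51 CPM in SHP -/- livers and 5.57 ± 1.52 CPM in wild-type livers (SD, n = 3 each; log2 difference 0.02 ± 0.34 SE). Esrrb, below the filter, held 0, 2 and 16 counts in SHP -/- libraries and 4, 2 and 4 in wild-type libraries.

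Ppargc1b, the PGC-1 beta coactivator, averaged 13.2 ± 3.40 CPM in SHP -/- livers and 10.4 ± 2.02 CPM in wild-type livers (SD, n = 3 each; log2 difference 0.38 ± 0.25 SE, limma adjusted p = 0.333). Of 13 tested genes known as targets of ERR and PGC-1, 1 was higher, 4 were lower and 8 did not pass. The median log2 difference of the 13 was −0.14, and 6.94% of all genes tested were lower and 7.58% higher. Pdk4, which restrains pyruvate oxidation, was lower at 6.62 ± 0.626 CPM in SHP -/- livers and 14.6 ± 1.40 CPM in wild-type livers (SD, n = 3 each; log2 difference −1.16 ± 0.23 SE, limma adjusted p = 0.00507). Gabpa, a subunit of a transcription factor for nuclear-encoded mitochondrial genes, was lower at 52.7 ± 6.42 CPM in SHP -/- livers and 78.8 ± 4.69 CPM in wild-type livers (SD, n = 3 each; log2 difference −0.57 ± 0.12 SE, limma adjusted p = 0.00934). Ndufs1, a subunit of respiratory complex I, was also lower (log2 difference −0.46 ± 0.11 SE, limma adjusted p = 0.0128). Atp5b, a subunit of ATP synthase, had a log2 difference of 0.16 (limma adjusted p = 0.246). The receptor gene Esrra was higher in the same livers in which 4 of these 13 genes were lower and 1 was higher. The higher one was Sdhb, a subunit of respiratory complex II (log2 difference 0.43 ± 0.11 SE, limma adjusted p = 0.022). The count of passing genes, 5 in all, was 2 without SHP -/- library 1 and 3 without SHP -/- library 2, SHP -/- library 3, wild-type library 2 or wild-type library 3.

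The COUP-TF receptors are orphan receptors that mostly repress, often at the same repeats that retinoid X receptor pairs use. Nr2f6, also called EAR2 (ENSMUSG00000002393, mm9 chromosome 8, 73898022 to 73905859, minus strand), had the largest difference of all tested members. It was measured at 59.8, 52.8 and 46.6 CPM in SHP -/- libraries, against 29.2, 25.4 and 23.2 CPM in wild-type libraries. The lowest SHP -/- library lay well above the highest wild-type library. Means were 53.1 ± 6.63 CPM in SHP -/- livers and 25.9 ± 3.03 CPM in wild-type livers (SD, n = 3 each), a 2.02-fold difference (log2 difference 1.02 ± 0.15 SE, limma adjusted p = 0.000982). It was the one member that passed in all 6 fits that left out 1 library, with log2 differences from 0.93 to 1.12. Nr2f6 overlaps Ocel1 on the opposite strand by 5239 bases in mm9, and in the GENCODE annotation of GRCm38 the pair shares 1622 exonic bases. Ocel1 was at 19.0, 19.8 and 17.2 CPM in SHP -/- libraries, against 13.3, 19.1 and 16.7 CPM in wild-type libraries (log2 difference 0.20 ± 0.19 SE, limma adjusted p = 0.508). The lengths listed in the authors' table, 1361 bases for Nr2f6 and 5511 for Ocel1, equal the exonic lengths of that annotation less the shared bases.

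Nr2f2, COUP-TFII (ENSMUSG00000030551, mm9 chromosome 7, 77496832 to 77511621, minus strand), which sets venous identity in endothelium and is also known in stromal cells, was the one member that was lower. It was at 31.7, 36.9 and 37.5 CPM in SHP -/- libraries, against 71.5, 46.8 and 65.7 CPM in wild-type libraries. The groups did not overlap, and wild-type library 2 lay nearest to the SHP -/- libraries. Means were 35.4 ± 3.15 CPM in SHP -/- livers and 61.3 ± 12.9 CPM in wild-type livers (SD, n = 3 each; log2 difference −0.77 ± 0.16 SE, limma adjusted p = 0.00805). Nr2f2 overlaps B130024G19Rik on the opposite strand by 1353 bases in mm9, and that gene held 20 counts over the SHP -/- libraries and 14 over the wild-type libraries. Without wild-type library 3 the limma adjusted p was 0.053 and the log2 difference −0.72, and without SHP -/- library 1 they were 0.0265 and −0.70. In whole liver, fewer cells of a type and less RNA per cell cannot be told apart. The 15 endothelial markers summed to 499.7, 795 and 774 CPM in SHP -/- libraries, against 787, 703 and 765 CPM in wild-type libraries, and none of them was at 0. The 15 stellate cell and fibroblast markers summed to 296, 607 and 577 CPM in SHP -/- libraries, against 547, 481 and 496 CPM in wild-type libraries, also with none at 0. Both sums were lowest in SHP -/- library 1, the library with the lowest Nr2f2 level. In SHP -/- libraries 2 and 3 both sums lay within or above the wild-type range, whereas Nr2f2, at 36.9 and 37.5 CPM, lay below it. Of the endothelial markers 1 was higher and none lower, with a median log2 difference of −0.17. The higher one was Lyve1, with a log2 difference of 0.82 (limma adjusted p = 0.0244) and every SHP -/- library above every wild-type library. Eng and Tie1 had log2 differences of 0.42 and 0.27 with overlapping groups, and neither passed. Stab2, Kdr and Clec4g, markers of sinusoidal endothelium, had log2 differences of −0.30, −0.42 and −0.40 with every SHP -/- library below every wild-type library, and Fcgr2b had −0.56 with overlapping groups, but none of these passed (limma adjusted p from 0.0924 to 0.114). Of the stellate markers none passed, with a median log2 difference of −0.05. The part of cell makeup in the Nr2f2 result was not tested. The 13 macrophage markers summed to 455, 711 and 632 CPM in SHP -/- libraries, against 533, 542 and 468 CPM in wild-type libraries. Of these, 3 were higher (Marco, C1qa and C1qc) and none lower, with a median log2 difference of 0.20, against 7.58% higher and 6.94% lower over all genes. Timd4 had a log2 difference of −0.81 with every SHP -/- library below every wild-type library, and Ctss had −0.43 with overlapping groups. Neither passed (limma adjusted p = 0.0639 and 0.196). Cholangiocyte markers summed to between 40.4 and 75.2 CPM in SHP -/- libraries and between 58.0 and 60.6 CPM in wild-type libraries.

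**Figure D3:**
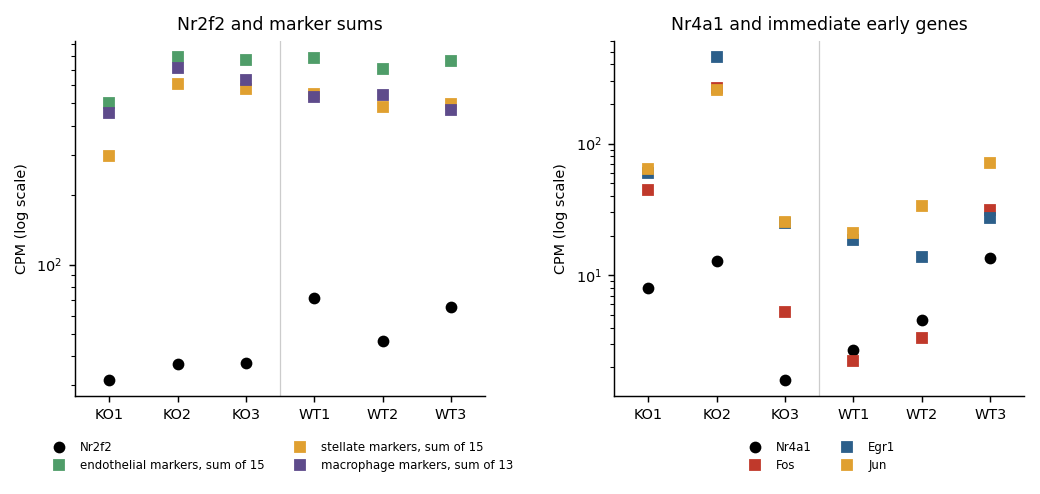
CPM in each library on log axes, with Nr2f2 beside summed markers of other liver cell types on the left and Nr4a1 beside 3 immediate early genes on the right. Nr2f2 lies between 31.7 and 37.5 CPM in SHP -/- libraries and between 46.8 and 71.5 CPM in wild-type libraries, and it and the summed markers are lowest in SHP -/- library 1. The summed markers in the other SHP -/- libraries lie within or above the wild-type range. Nr4a1 is highest in SHP -/- library 2 and wild-type library 3 within each genotype, as are Fos, Egr1 and Jun.

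Nr2f1, the third COUP-TF, was below the filter with 2, 0 and 10 counts in SHP -/- libraries and 5, 8 and 0 in wild-type libraries. As a share of the length-scaled level of the COUP-TF family (CPM per kilobase), Nr2f6 made up 86.9%, 83.6% and 81.1% in SHP -/- libraries, against 59.0%, 65.1% and 55.8% in wild-type libraries. The corresponding mean share of Nr2f2 was 15.8% ± 2.71 in SHP -/- livers and 39.4% ± 5.39 in wild-type livers (SD, n = 3 each). These shares restate the differences of the pair and were not tested. The shift was the largest of those in the families plotted. Rxra made up 89.2% ± 0.584 of the RXR level in SHP -/- livers and 86.9% ± 1.84 in wild-type livers (SD, n = 3 each), with no overlap between groups. The shares of the LXR, thyroid hormone, estrogen-related and retinoic acid receptor isotypes overlapped between genotypes. Nr1h3 took 84.7% ± 0.384 of the LXR level in SHP -/- livers and 87.8% ± 3.39 in wild-type livers (SD, n = 3 each).

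**Figure D4:**
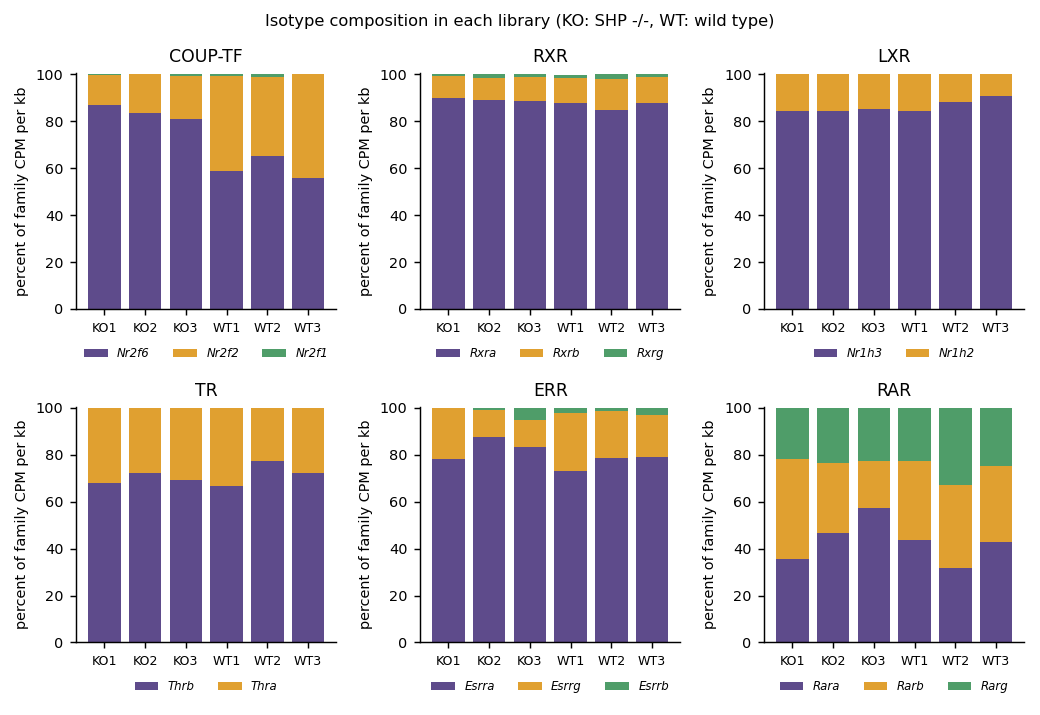
Percent of the summed CPM per kilobase of a receptor family taken by each isotype, in each library, for 6 families. Nr2f6 holds 81.1% to 86.9% of the COUP-TF level in SHP -/- libraries and 55.8% to 65.1% in wild-type libraries, whereas isotype shares of the LXR, TR, ERR and RAR families overlap between genotypes.

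The testicular orphan receptors Nr2c1 and Nr2c2, which repress at similar repeats, did not pass. Nr2c2 was at 42.0, 36.3 and 38.3 CPM in SHP -/- libraries, against 48.1, 49.5 and 49.2 CPM in wild-type libraries. All SHP -/- values lay below the wild-type values, at a log2 difference of −0.34 ± 0.12 SE (limma adjusted p = 0.0825). Nr2c2 overlaps Mrps25 on the opposite strand by 3533 bases in mm9, and Mrps25 had a log2 difference of 0.06. Nr2c1 averaged 22.0 ± 4.41 CPM in SHP -/- livers and 26.7 ± 3.92 CPM in wild-type livers (SD, n = 3 each; log2 difference −0.33 ± 0.19 SE). Hnf4g, a relative of the hepatocyte regulator HNF4 alpha, was below the filter with 4, 0 and 2 counts in SHP -/- libraries and 2, 2 and 1 in wild-type libraries. Nr6a1, a repressor known from germ cells and the early embryo, was at 21.0, 16.7 and 17.9 CPM in SHP -/- libraries, against 26.6, 19.3 and 26.8 CPM in wild-type libraries. Its groups overlapped, and the log2 difference was −0.41 ± 0.18 SE (limma adjusted p = 0.145).

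NR4A receptors are induced within minutes by many stimuli and are read here beside other immediate early genes. Nr4a1 was at 7.99, 12.8 and 1.61 CPM in SHP -/- libraries, against 2.73, 4.57 and 13.5 CPM in wild-type libraries. It varied most within each genotype among the tested members, by 7.92-fold over SHP -/- libraries and 4.95-fold over wild-type libraries. Its log2 difference was −0.30 ± 0.69 SE (limma adjusted p = 0.806), whereas the mean was 7.46 ± 5.60 CPM in SHP -/- livers and 6.93 ± 5.76 CPM in wild-type livers (SD, n = 3 each). The authors' pooled values also differed in sign, with a log2 ratio of 0.11 but RPKM of 1.75 in SHP -/- and 1.88 in wild type. The direction for Nr4a1 thus depended on the measure. Fos was at 44.8, 263 and 5.24 CPM in SHP -/- libraries, against 2.22, 3.33 and 31.4 CPM in wild-type libraries. Egr1 was at 59.6, 456 and 24.8 CPM in SHP -/- libraries, against 18.6, 13.7 and 27.0 CPM in wild-type libraries. Within each genotype the library with the highest Nr4a1 level was also highest in Fos and Egr1. All listed immediate early genes were highest in SHP -/- library 2 among SHP -/- libraries. Among wild-type libraries, Junb, Ier2 and Ier3 were not highest in library 3, whereas the other listed genes were. Junb was lowest there, at 15.4, 15.2 and 12.9 CPM in wild-type libraries. The part of this shared variation in the Nr4a1 values was not tested. Egr1 was the most abundant of the immediate early genes that did not pass (log2 difference 2.11, limma adjusted p = 0.13). Nr4a2, below the filter, held 2, 5 and 1 counts in SHP -/- libraries and 0, 0 and 12 in wild-type libraries. Of 11 tested immediate early genes 4 were higher and none lower (median log2 difference 1.13), and 14.5% of all genes tested passed. The count of passing immediate early genes was 10 without SHP -/- library 3 and 1 without wild-type library 1 or wild-type library 2. It was 2 without SHP -/- library 2 or wild-type library 3. Junb had the largest difference among the 4 that passed, at 79.0 ± 68.0 CPM in SHP -/- livers and 14.5 ± 1.39 CPM in wild-type livers (SD, n = 3 each; log2 difference 2.04 ± 0.55 SE, limma adjusted p = 0.0246). Zfp36 and Dusp1, which shut down inflammatory signals, were higher by log2 differences of 1.05 and 0.97 (limma adjusted p = 0.0426 and 0.0359). The groups of Dusp1 overlapped, with SHP -/- libraries 1 and 3 at 150.0 and 139.7 CPM and wild-type library 3 at 152 CPM.

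Coregulators carry the enzymatic and bridging activities that receptors recruit. Carm1, an arginine methyltransferase that modifies histones and other coactivators (ENSMUSG00000032185, mm9 chromosome 9, 21351338 to 21393931, plus strand), was the one coregulator past the threshold. It was at 25.1, 22.6 and 26.6 CPM in SHP -/- libraries, against 16.0, 12.9 and 19.2 CPM in wild-type libraries. The groups did not overlap. Means were 24.8 ± 2.02 CPM in SHP -/- livers and 16.0 ± 3.16 CPM in wild-type livers (SD, n = 3 each; log2 difference 0.63 ± 0.18 SE, limma adjusted p = 0.0353). The call held without SHP -/- library 2 and was lost in the other 5 fits that left out 1 library (limma adjusted p up to 0.108) and without the low-count filter (limma adjusted p = 0.0538). Carm1 overlaps Yipf2 on the opposite strand by 779 bases in mm9, and Yipf2 had a log2 difference of −0.30 ± 0.19 SE (limma adjusted p = 0.323). Since the use of strand in counting is not stated, reads from the bases that Carm1, Nr2c2, Nr2f2 and Esrra share with their opposite-strand neighbours may not have been told apart. Prmt1, the major arginine methyltransferase of most cells, averaged 16.0 ± 2.28 CPM in SHP -/- livers and 12.1 ± 2.24 CPM in wild-type livers (SD, n = 3 each; log2 difference 0.38 ± 0.21 SE, limma adjusted p = 0.247).

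The p160 coactivators bridge receptors to acetyltransferases, and none passed. Ncoa3 averaged 73.1 ± 4.44 CPM in SHP -/- livers and 59.7 ± 6.84 CPM in wild-type livers (SD, n = 3 each). Its groups did not overlap, at a log2 difference of 0.30 ± 0.12 SE (limma adjusted p = 0.109). Ncoa1 and Ncoa2 had log2 differences of 0.06 ± 0.14 SE and 0.04 ± 0.11 SE. Ncoa4, named as a coactivator and known mainly as the receptor that delivers ferritin for breakdown, had 0.03 ± 0.22 SE. The acetyltransferase genes Crebbp and Ep300 had log2 differences of 0.20 ± 0.12 SE and 0.03 ± 0.13 SE, and Crebbp made up 65.3% ± 0.870 of their summed level in SHP -/- livers and 62.7% ± 1.95 in wild-type livers (SD, n = 3 each).

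Med1, the Mediator subunit that contacts receptors, was at 66.0, 67.5 and 57.2 CPM in SHP -/- libraries, against 67.9, 78.2 and 86.4 CPM in wild-type libraries. The groups did not overlap, though SHP -/- library 2 and wild-type library 1 were nearly level, and the log2 difference of −0.29 ± 0.13 SE did not pass (limma adjusted p = 0.139). Nrip1, which encodes the corepressor RIP140 that binds ligand-activated receptors, was at 21.5, 16.1 and 19.7 CPM in SHP -/- libraries, against 23.5, 24.3 and 28.4 CPM in wild-type libraries. All SHP -/- values were lower, and the log2 difference of −0.42 ± 0.17 SE, the most negative among members that did not pass, had a limma adjusted p of 0.11. Of 45 tested further coactivators and Mediator subunits, 1 was higher, 5 were lower and 39 did not pass. The median log2 difference of the 45 was −0.11, and 14.5% of all genes tested passed. Med25, a Mediator subunit, was higher at 31.9 ± 2.54 CPM in SHP -/- livers and 17.8 ± 3.56 CPM in wild-type livers (SD, n = 3 each; log2 difference 0.84 ± 0.17 SE, limma adjusted p = 0.00717). Cdk8, the kinase of the Mediator kinase module, was lower at 20.7 ± 1.98 CPM in SHP -/- livers and 34.4 ± 5.48 CPM in wild-type livers (SD, n = 3 each; log2 difference −0.70 ± 0.17 SE, limma adjusted p = 0.015). Ddx5, an RNA helicase and coactivator, was lower (log2 difference −0.49 ± 0.14 SE, limma adjusted p = 0.0278), and its relative Ddx17 had −0.26 ± 0.11 SE (limma adjusted p = 0.133). None of the 45 passed without wild-type library 3.

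Seen across members, 12 of 33, or 36.4%, had groups that did not overlap, against 35.1% of all genes tested. All 6 members past the threshold were among them, and the other 6 were Nr1h3 and Ncoa3 above wild type and Nr3c1, Nr2c2, Med1 and Nrip1 below it. An unadjusted p under 0.05 was reached by 7 members that did not pass. Another 14 members had absolute log2 differences of at most 0.2. The shares of all genes at these cutoffs were not computed, so neither count can be read as particular to the members. Without wild-type library 3, Nr2f6 alone passed. That library also weighed most on the table as a whole, with 1713 genes past the threshold over all libraries, 629 without wild-type library 3 and 1061 without SHP -/- library 1. The count of higher members, 5 with all libraries, was 2 without SHP -/- library 1, 3 without SHP -/- library 3 or wild-type library 2, and 4 without SHP -/- library 2 or wild-type library 1.

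Levels per length differed far more between members than between genotypes. Rxra was highest at 119 CPM per kilobase over the 6 libraries, with a range of 98.0 to 157, and its range lay above that of Nr1h3, the next member, at 41.6 CPM per kilobase. Nr2f6 followed at 29.0, Nr3c1 at 16.8 and Rxrb at 14.0 CPM per kilobase. From Nr1h3 down to Esrrg, at 0.933 CPM per kilobase the lowest tested member, the range of each member over libraries overlapped that of its neighbour. The members below the filter averaged at most 0.160 CPM per kilobase. Lengths are those listed in the authors' table and may differ from the transcripts made in liver.

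**Figure D5:**
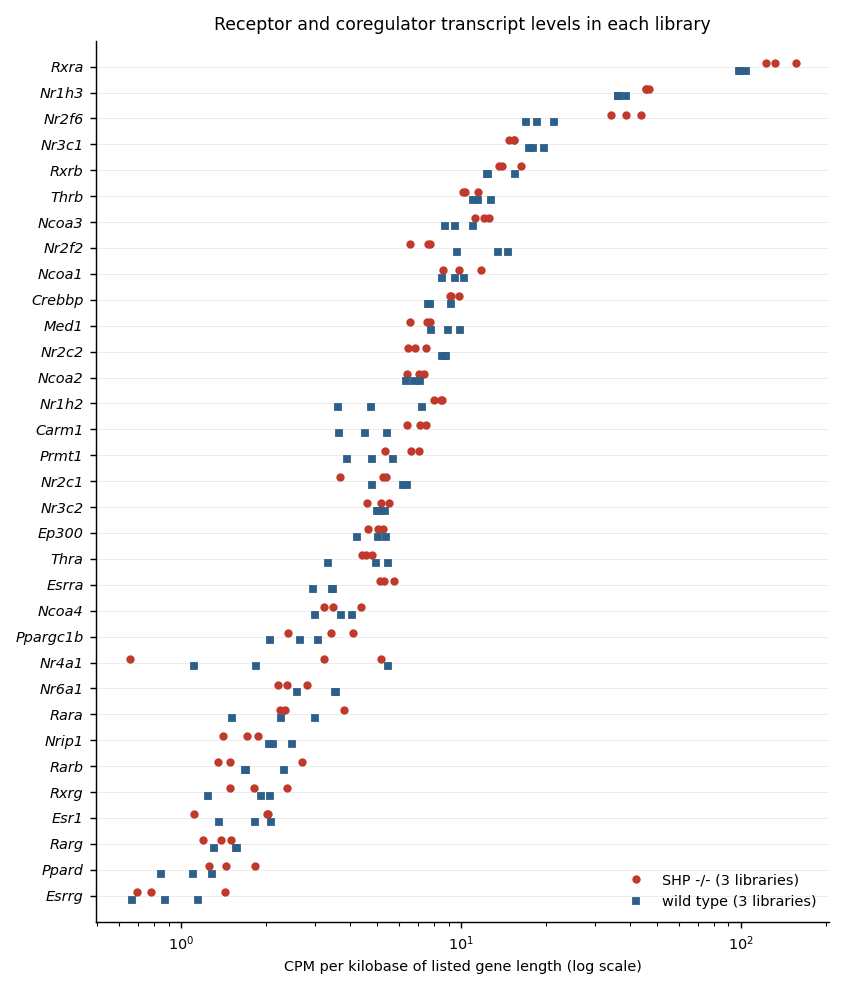
CPM per kilobase of listed gene length in each library on a log axis, for the 33 tested members in order of mean level over 6 libraries. Rxra stands alone at 98.0 to 157 CPM per kilobase, and Nr4a1 has the widest spread, from 0.653 to 5.47 CPM per kilobase.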

How the data were processed

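Total RNA was extracted from liver with TRIzol, capped RNA was selected with an EIF4E variant and 36-cycle read pairs were made, per the labels' protocols. Levels are therefore those of RNA left by this selection, in which mitochondrially encoded genes held 5.66% to 10.3% of the counts. How much uncapped RNA remained was not tested. Reads were aligned with Novoalign 2.05.33, and mm9 was the build, per the submitters' processing notes. How reads were counted, whether by strand, and the annotation used are not given in sources used here. Values that the authors deposited are whole-number counts per gene and library, with RPKM for the pooled groups and their log2 ratio. The authors' negative binomial p-values and false discovery rates were also deposited and were not used here. Because 4840 lines of the table end early, the count columns were recorded under a general unit as other values, and limma voom was used with no negative binomial test. The 19594 genes with counts held whole numbers in every library. The deposited RPKM and log2 ratio pool replicates and were read only as the authors' values.

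Genes with a CPM of 1.83 (10 counts in the median library) in at least 3 libraries and a total of at least 15 counts were tested. Scaling used trimmed means of M values (factors 0.965 to 1.03). Log2 CPM with an offset of 0.5 counts were fitted with limma 3.58.1 in R 4.3.3, with genotype as the one term, and adjusted over all 11794 genes. Leaving out each library in turn and 9 other settings were tried. The code was tested on simulated data.

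Members and gene lists were chosen with earlier results of these data known. Every member is accounted for. Values are given for each library for members past the threshold and for the 3 largest absolute differences among the others, and values of some further members were added after they were seen. Of each list, up to 3 passing genes with the largest absolute difference and the most abundant other gene are named. Fos, Jun, Ier2 and Ier3, of the immediate early genes, and Sdhb, of the ERR and PGC-1 targets, were added after their values were seen. Marker lists give sums, and the endothelial and macrophage markers named were chosen after their values were seen. Start windows came from RefSeq on GRCm38.p6 and were matched by symbol. Overlapping exons came from GENCODE M21, with no coordinates converted.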

Additional observations from a re-analysis of the deposited data

How the results depend on the processing

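Direction and side of the threshold of the 6 members past it held under 8 of the 9 other settings, and for Nr2f6, Esrra, Nr1h2, Rxra and Nr2f2 under all 9. Carm1 was lost without the low-count filter. Nr1h3 was gained with sample quality weights and with the stricter filter. The count of genes past the threshold ran from 1466 to 1871 over these settings and from 629 to 1559 when 1 library was left out. Leaving out 1 library gave 1 to 4 higher members and 0 to 1 lower.

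Passing genes in the lists, when 1 library was left out, ran from 0 to 2 for LXR targets, 2 to 4 for thyroid hormone, 0 to 3 for retinoid, 1 to 5 for glucocorticoid, 2 to 4 for ERR and PGC-1 targets, 0 to 6 for further coactivators, 1 to 10 for immediate early genes, and among markers 0 to 1 for hepatocytes, 0 to 2 for macrophages, 0 to 2 for endothelium and 0 to 4 for stellate cells. Hepatocyte markers past the threshold were 1 under limma trend, the replicate block and the stricter filter, against 2 in the reported fit. Stellate markers past it were 1 under limma trend and the replicate block, against 0. Immediate early genes past it were 1 under robust variance moderation, against 4. The cause was not tested.

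Signs reversed for members with small or noisy differences. Thra was −0.01 with the replicate block and with sample quality weights, and Nr4a1 was 0.01 with limma trend. Leaving out 1 library moved the log2 difference from −0.18 to 0.13 for Thra, −0.42 to 0.06 for Rarb, −0.09 to 0.29 for Rxrg, −0.32 to 0.24 for Esr1, −0.06 to 0.06 for Nr3c2, −0.22 to 0.24 for Esrrg, −0.93 to 0.84 for Nr4a1, −0.04 to 0.19 for Ncoa1, −0.11 to 0.13 for Ncoa4 and −0.05 to 0.11 for Ep300.

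Replicate numbers are shared between genotypes in the labels, but deviations of same-numbered libraries correlated at −0.0187, −0.021 and −0.0244, so the numbers were not taken as pairs. With the replicate block 1778 genes passed, and the same 6 members did. Members with few counts, such as Rxrg and Ppard, could be compared only coarsely at this depth.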
